A study of Homo sapiens with 12 samples.

Results

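The Krüppel-like factors (KLFs) are zinc finger proteins that bind DNA. Nascent transcription of 10 KLF genes was followed here: KLF2, KLF3, KLF4, KLF5, KLF6, KLF7, KLF9, KLF10, KLF11 and KLF13. They were taken by gene symbol from the 60583 genes of the count tables, and the family was chosen with earlier results of these data known. The assay was TT-seq, in which newly made RNA is labelled with 4-thiouridine, captured and sequenced, in 4 groups of 3 libraries. U2OS, a human osteosarcoma cell line, was transfected for 48 h with siRNA, either a control (siCtrl) or one that targets INTS11 (siINTS11). U2OS-AsiSI, a derivative of that line that carries the restriction nuclease AsiSI, was transfected in the same ways for 48 h and also had 4-hydroxytamoxifen (OHT) for 1 h. INTS11 is the RNA-cutting subunit of Integrator, a complex that acts on RNA polymerase II early in genes, and the study asked how Integrator bears on elongation. Line, nuclease and OHT differ together between the U2OS and U2OS-AsiSI libraries and cannot be told apart. The labels do not say whether replicates were separate cultures, so p-values measure the spread between these libraries, which may be technical.

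KLF proteins bind GC-rich and CACCC-containing DNA through zinc fingers at their C-terminal end, and their N-terminal parts recruit different partners. KLF2, KLF4, KLF5, KLF6 and KLF7 are mostly activators that work with acetyltransferases, KLF3 is a repressor that binds CtBP proteins, and KLF9, KLF10, KLF11 and KLF13 carry a segment that recruits the Sin3 corepressor. Several of these genes are short and quickly induced, KLF10 being known in bone cells as an early gene of TGF-beta, while others span long introns.

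Total counts ran from 20704611 to 38065726 per library, and the smallest total belonged to U2OS-AsiSI siINTS11 replicate 2. INTS11 itself was covered by 216 to 314 reads in the U2OS libraries and 212 to 351 in the U2OS-AsiSI libraries. Its nascent level was lower after siINTS11 in U2OS (log2 fold change -0.42, SE 0.09, edgeR adjusted p = 6.08e-05), and the value in U2OS-AsiSI was -0.13 (SE 0.08, edgeR adjusted p = 0.172), or 0.06 when scaled by library totals alone. In scaled CPM every siINTS11 library was below every siCtrl library in both lines. The difference between the lines in the INTS11 effect was 0.25 (SE 0.12, edgeR adjusted p = 0.235) and did not pass the test. An siRNA acts on finished mRNA, so nascent counts check the labels only in part. Of the markers of the line, RUNX2, COL1A1, SPARC and VIM had at least 1929 reads in every library and ALPL 69 to 345, whereas COL1A2, SP7 and TWIST1 had at most 13 and BGLAP had 0. The 4 blood markers together reached at most 0.329 CPM, the count relative to the scaled library total, in a library. Of the epithelial markers, EPCAM had 108 to 201 reads, CDH1 136 to 264 and KRT5 at most 3, and their summed level was 10.2 to 11.4 CPM in siCtrl libraries and 11.4 to 14.5 CPM in siINTS11 libraries.

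Start regions are shown for 4 members picked by name and not by a ranking of results: KLF2, KLF7, KLF9 and KLF13. Of the 10 members, 8 were matched by symbol in the RefSeq promoter table (GRCh38.p14), and KLF3 and KLF10 were not. For 6 of the 8, the table holds 150 bases that lie before the gene as the count tables delimit it. KLF4 and KLF11 had no such window. For KLF7 the window is that of the outermost of 4 annotated starts, the others lying inside the gene. Capitals mark matches on either strand to the motifs searched, each sequence is written 5′ to 3′ on the gene's own strand, and the coordinates are chr19:16324667-16324816 on the plus strand for KLF2, chr2:207167268-207167417 on the minus strand for KLF7, chr9:70414658-70414807 on the minus strand for KLF9 and chr15:31326685-31326834 on the plus strand for KLF13.
KLF2: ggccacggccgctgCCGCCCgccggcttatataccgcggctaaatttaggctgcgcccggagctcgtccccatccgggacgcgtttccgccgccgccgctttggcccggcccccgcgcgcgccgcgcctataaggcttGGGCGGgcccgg
KLF7: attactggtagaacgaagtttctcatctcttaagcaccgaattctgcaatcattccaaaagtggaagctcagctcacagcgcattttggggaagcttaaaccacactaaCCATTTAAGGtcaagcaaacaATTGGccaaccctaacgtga
KLF9: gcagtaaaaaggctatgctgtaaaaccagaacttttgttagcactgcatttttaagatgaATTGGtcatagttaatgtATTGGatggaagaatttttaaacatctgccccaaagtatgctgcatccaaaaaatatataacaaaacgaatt
KLF13: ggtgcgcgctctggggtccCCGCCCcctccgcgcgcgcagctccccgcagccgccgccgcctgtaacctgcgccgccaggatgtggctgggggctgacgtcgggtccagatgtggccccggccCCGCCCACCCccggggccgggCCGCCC

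The motifs searched were the GC box GGGCGG and the CACCC element, which SP and KLF proteins bind, the CCAAT box, the TATAAA element, the AsiSI cut site GCGATCGC and the CArG box of serum response factor, all on both strands. KLF2 held 2 GC boxes, and KLF13 held 3 GC boxes and 1 CACCC element, which overlaps one of the boxes by 1 base. KLF9 held 2 CCAAT boxes. KLF7 held 1 CCAAT box and 1 CArG box. Of the 6 members with a window, 3 had a GC box, 2 a CACCC element, 3 a CCAAT box and 1 a CArG box. Among 27305 promoters in the same table, 150 bases before the start held these in 36.7%, 38.6%, 24.4% and 0.765%. None of the 6 windows had TATAAA (7.05% of all promoters) or an AsiSI site (0.103% of all promoters). The GC content of the printed windows was 75.3% in KLF2, 42.7% in KLF7, 32.0% in KLF9 and 82.0% in KLF13. A match is a description of letters and says nothing of whether a factor binds there.

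KLF6, KLF10 and KLF5 were the most transcribed members per length in U2OS, and KLF4 and KLF13 were close to silent in all 4 groups. Levels were set as CPM per kb of gene span, with the totals scaled by the trimmed mean of M-values (TMM), which centres the bulk of genes. In U2OS siCtrl, KLF6 had 9.77 ± 1.08 CPM per kb (SD, n = 3), KLF10 6.71 ± 0.254 and KLF5 5.04 ± 0.148. KLF7 followed at 4.52 ± 0.105, KLF3 at 3.41 ± 0.0614, KLF11 at 2.79 ± 0.113, KLF2 at 2.73 ± 0.32 and KLF9 at 1.08 ± 0.152. KLF13 was at 0.0299 ± 0.00158 CPM per kb and KLF4 at 0.0106 ± 0.00961. Neighbours in this order were apart in every library except KLF11 and KLF2. In U2OS-AsiSI siCtrl the same genes led, with KLF6 at 8.24 ± 0.682 and KLF10 at 7.83 ± 0.525 CPM per kb overlapping each other. There KLF2 stood higher in the order, at 3.91 ± 0.848 CPM per kb, and overlapped both KLF5 above it and KLF7 below it. After siINTS11 in U2OS-AsiSI, KLF2 reached 5.22 ± 0.355 CPM per kb and was above KLF5 at 4.44 ± 0.185 in every library, while KLF7 had moved below KLF3, at 2.51 ± 0.0676 against 2.86 ± 0.0213.

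**Figure D1:**
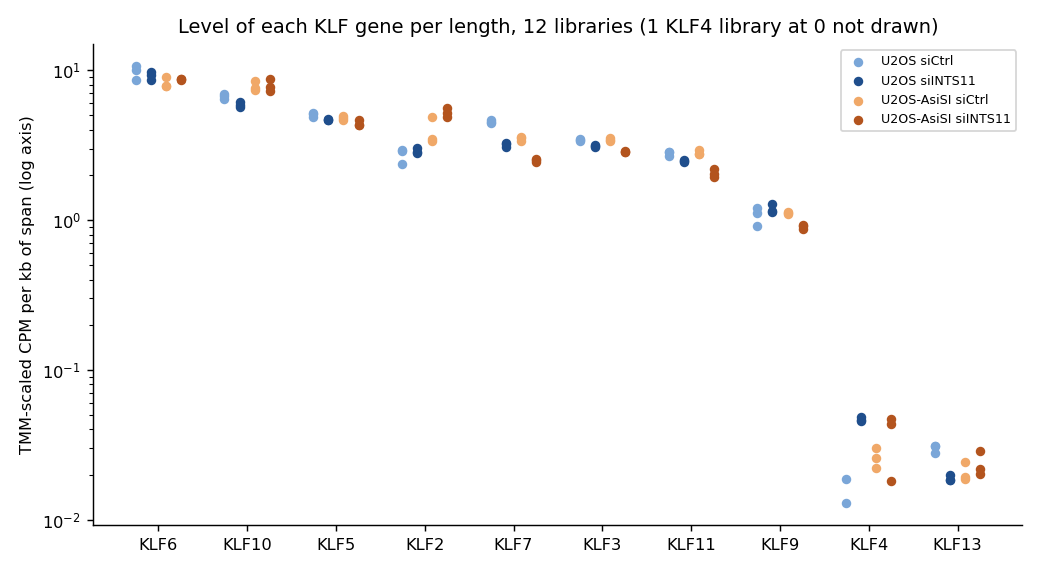
Level of each KLF gene in scaled CPM per kb of gene span (log axis), by group; points are the 3 libraries of a group, and the KLF4 library at 0 is not drawn. KLF6 and KLF10 lie highest in all 4 groups, and KLF13 and KLF4 lie below 0.05 CPM per kb throughout.

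Libraries labelled siINTS11 were compared with siCtrl libraries first in U2OS-AsiSI, where the nascent level of INTS11 itself did not pass the test. Of the 9 members that passed the filter on low counts, 1 rose (KLF2) and 5 fell (KLF3, KLF5, KLF7, KLF9 and KLF11), by edgeR's quasi-likelihood test with Benjamini-Hochberg adjustment over 20441 genes at 0.05. KLF4 did not pass that filter. Of all genes tested, 68.0% changed, 35.4% upward and 32.6% downward, so 6 of 9 is near the background. Libraries of the siRNAs did not overlap for 5 of the 9 members, against 71.0% of all genes. The median log2 fold change was -0.11 over the 9 members and 0.03 over all genes tested.

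In U2OS, 6 of the 9 members changed, all downward: KLF3, KLF5, KLF7, KLF10, KLF11 and KLF13. Of 20687 genes tested there, 66.9% changed and 32.4% fell. The siRNAs' libraries were apart for these same 6 members, against 69.4% of all genes. The median was -0.16 over the members and 0.02 over all genes. KLF3, KLF5, KLF7 and KLF11 thus fell in both lines, each line with its own control libraries. These directions are relative to the TMM scaling: with library totals alone the median of all genes moved to 0.22 in both lines, and the share of calls that were upward went from 52.1% to 72.3% in U2OS-AsiSI and from 51.6% to 74.3% in U2OS. With that scaling 4 members rose and 2 fell in U2OS-AsiSI, and 2 rose and 2 fell in U2OS; KLF7 was lower in both lines.

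**Figure D2:**
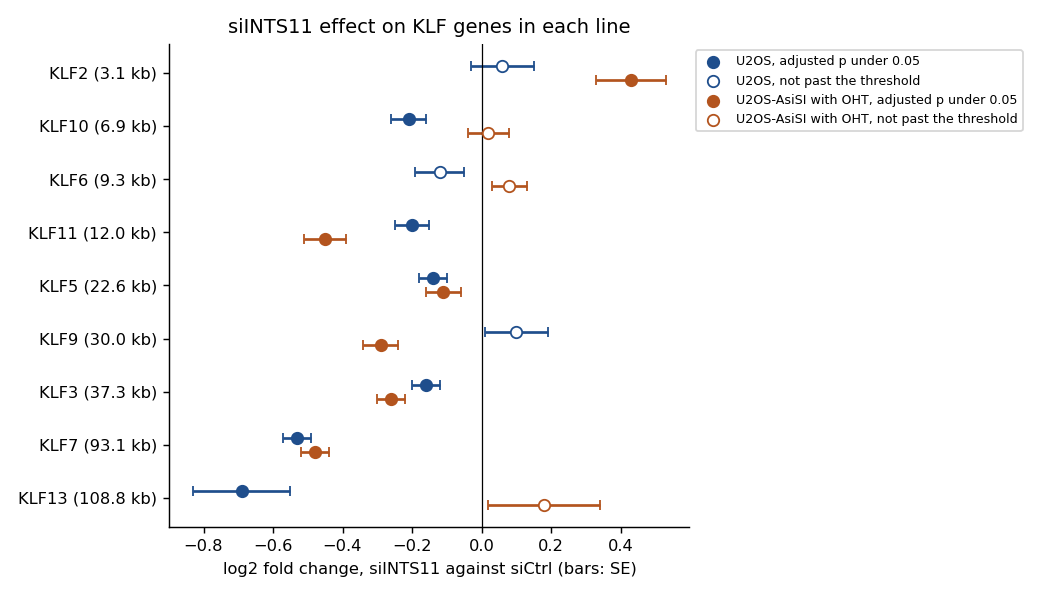
Log2 fold change of siINTS11 against siCtrl (points, SE) for the 9 tested KLF genes in each line. KLF7 lies at -0.48 and -0.53, and open points did not pass the test.

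Among the activators, KLF7 gave the clearest result. KLF7, a factor best known in neurons, lies at chr2:207074137-207167267 on the minus strand (hg38, as the tables give it), spans 93.13 kb and is 9.9% exon. It drew 5149 to 14637 reads per library, more than any other member. In U2OS it had 432, 414 and 417 CPM in siCtrl replicates 1 to 3 and 288, 298 and 305 CPM after siINTS11. In U2OS-AsiSI it had 332, 316 and 331 CPM under siCtrl and 239, 227 and 236 CPM after siINTS11. Every siINTS11 library was below every siCtrl library, in both lines. The level fell by 30.9% in U2OS (log2 fold change -0.53, SE 0.04, edgeR adjusted p = 5.36e-15) and fell by 28.1% in U2OS-AsiSI (log2 fold change -0.48, SE 0.04, edgeR adjusted p = 8.88e-11). With library totals alone the values were -0.33 and -0.29, and both still passed the test.

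KLF2, a flow-induced factor of the vessel wall and a regulator of T cell quiescence, rose after siINTS11 in U2OS-AsiSI. It spans 3.06 kb at chr19:16324817-16327874 on the plus strand. In U2OS-AsiSI it had 10.7, 10.2 and 14.9 CPM under siCtrl and 14.9, 17.1 and 15.9 CPM after siINTS11. The third siCtrl library stood with the siINTS11 libraries, so the groups overlapped. The rise was 34.3% (log2 fold change 0.43, SE 0.10, edgeR adjusted p = 0.000352), and with each library left out in turn it ran from 0.32 without siCtrl replicate 2 (edgeR adjusted p = 0.00315) to 0.60 without siCtrl replicate 3. In U2OS the levels were 9.03, 7.23 and 8.81 CPM under siCtrl and 9.21, 8.70 and 8.55 CPM after siINTS11, with overlap (log2 fold change 0.06, SE 0.09, edgeR adjusted p = 0.566). With library totals alone KLF2 rose in both lines, by 0.61 in U2OS-AsiSI (edgeR adjusted p = 8.63e-06) and 0.26 in U2OS (edgeR adjusted p = 0.0131) on the log2 scale. KLF6, KLF10 and KLF13 in U2OS-AsiSI and KLF9 in U2OS also rose under that scaling.

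Within groups, the slope of the KLF2 log count on the log library total was 0.12 (SE 0.33), where a value of 1 means counts in proportion to the total. The raw counts of KLF2 in U2OS-AsiSI were 315, 327 and 409 under siCtrl and 427, 388 and 464 after siINTS11, in libraries whose totals were smaller. With all libraries thinned to the smallest total, the log2 fold change was 0.39 (edgeR adjusted p = 0.000248). Thinning keeps the expected CPM of each library, so this value does not address the slope. The part of library size in the KLF2 rise was not tested. The 3 endothelial markers PECAM1, CDH5 and VWF were read in every library, and their summed level went from between 5.9 and 6.54 CPM under siCtrl to between 13.2 and 13.7 after siINTS11 in U2OS-AsiSI. In U2OS it went from between 6.1 and 7.43 to between 14.1 and 15.1 CPM. Their part in the KLF2 result was not tested.

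KLF5 and KLF6, which act on proliferation, had log2 fold changes from -0.14 to 0.08 under TMM scaling. KLF5, at chr13:73054976-73077541 on the plus strand, had 117, 110 and 114 CPM under siCtrl in U2OS and 106, 105 and 105 CPM after siINTS11. The U2OS-AsiSI levels were 108, 105 and 112 CPM under siCtrl and 97.8, 105 and 97.7 CPM after siINTS11. The groups were apart in both lines, by less than 1 CPM in U2OS-AsiSI, where the highest siINTS11 library and the lowest siCtrl library both round to 105. KLF5 fell by 9.1% in U2OS (edgeR adjusted p = 0.00234) and fell by 7.3% in U2OS-AsiSI (edgeR adjusted p = 0.0372). Library totals alone turned both signs (log2 fold changes 0.06 and 0.08), and the U2OS-AsiSI call was lost when replicate 1 or 3 of either siRNA was left out, 4 of 6 such fits, with edgeR adjusted p between 0.0147 and 0.127 over the 6. Thinned to the smallest total, KLF5 did not pass in either line, at -0.11 in U2OS-AsiSI (edgeR adjusted p = 0.0503) and -0.08 in U2OS (edgeR adjusted p = 0.0847). With a mean count minimum of 50, the U2OS-AsiSI value was -0.06 (edgeR adjusted p = 0.258).

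KLF6, a zinc finger gene often altered in tumours, lies at chr10:3775996-3785281 on the minus strand. It had 99.5, 79.8 and 92.8 CPM under siCtrl in U2OS and 79.5, 90.4 and 85.8 CPM after siINTS11. Levels in U2OS-AsiSI were 73.4, 72.4 and 83.8 CPM under siCtrl and 80.6, 81.1 and 79.7 CPM after siINTS11. The groups overlapped in both lines, and neither log2 fold change passed the test, at -0.12 (SE 0.07) in U2OS and 0.08 (SE 0.05) in U2OS-AsiSI (edgeR adjusted p = 0.193 and 0.174). KLF6 was the densest member, at 0.199 to 0.304 reads per base, and its counts rose with library size at a slope of 0.46 (SE 0.19). Without U2OS siCtrl replicate 2, the largest library, the U2OS value was -0.19 (edgeR adjusted p = 0.00117), and without U2OS-AsiSI siCtrl replicate 3 the U2OS-AsiSI value was 0.14 (edgeR adjusted p = 0.0162). The U2OS-AsiSI value was also called at 0.27 with library totals alone (edgeR adjusted p = 2.8e-05) and at 0.13 with a mean count minimum of 50 (edgeR adjusted p = 0.0223). In U2OS library totals alone gave 0.08 (edgeR adjusted p = 0.318), and with no count filter the value of -0.12 was called (edgeR adjusted p = 0.0224).

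KLF4, a pluripotency and epithelial factor at chr9:107484852-107490482 on the minus strand, was almost unread. Its counts were 2, 0 and 3 in U2OS siCtrl, 9, 8 and 8 in U2OS siINTS11, 5, 4 and 4 in U2OS-AsiSI siCtrl and 7, 6 and 3 in U2OS-AsiSI siINTS11. The siINTS11 libraries lay above the siCtrl libraries in U2OS and overlapped them in U2OS-AsiSI. A count of 0 in U2OS siCtrl replicate 2 allows a level of up to 0.0848 CPM in that library, for counting error only. KLF4 was below the filter on low counts. With no such filter it was called higher after siINTS11 in U2OS (log2 fold change 2.15, SE 0.63, edgeR adjusted p = 0.00206), as it was by DESeq2 (2.17, SE 0.94, adjusted p = 0.0457), on 5 summed reads against 25. In U2OS-AsiSI the unfiltered value was 0.42 (SE 0.56, edgeR adjusted p = 0.571), and by DESeq2 it was 0.43 (SE 0.80, adjusted p = 0.702). The difference between the lines in the unfiltered fit was -1.70 (SE 0.87, edgeR adjusted p = 0.473).

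**Figure D3:**
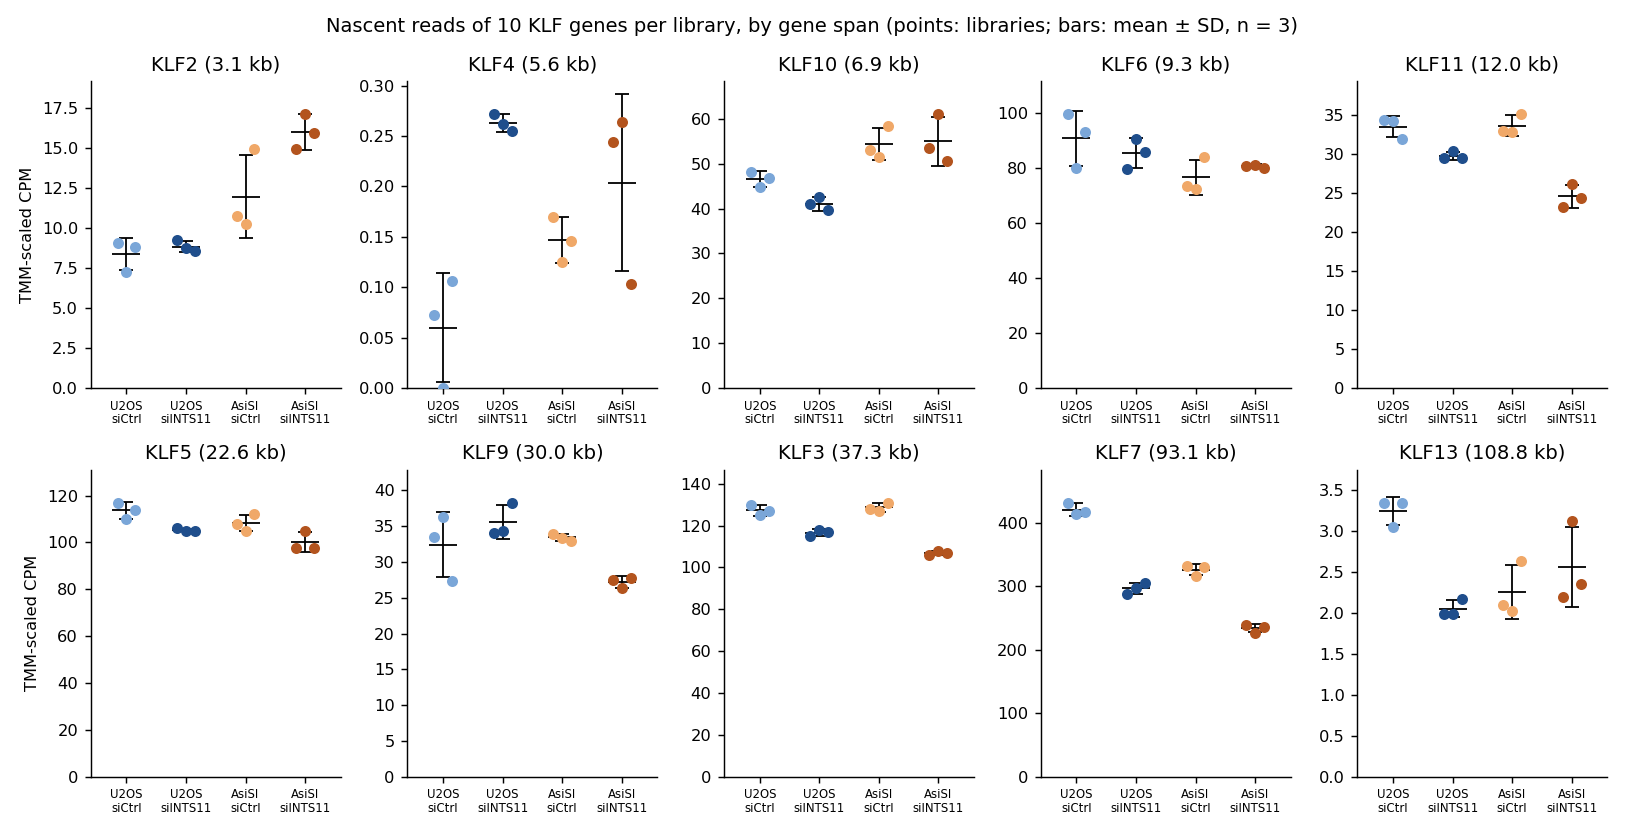
Scaled CPM of each KLF gene in the 12 libraries, 1 panel per gene, each axis starting at 0; points are libraries and lines are group means with SD. The KLF7 libraries of the 2 siRNAs are apart in both lines, and those of KLF6 overlap in both.

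KLF3, the CtBP-binding repressor known from blood and fat cells, fell in both lines. It lies at chr4:38664197-38701517 on the plus strand and spans 37.32 kb. In U2OS it had 130, 125 and 127 CPM under siCtrl and 115, 118 and 117 CPM after siINTS11. U2OS-AsiSI libraries gave 128, 127 and 131 CPM under siCtrl and 106, 108 and 107 CPM after siINTS11. The groups were apart in both lines, and the 3 siINTS11 libraries of each line lay within a few CPM of each other. KLF3 fell by 10.3% in U2OS (log2 fold change -0.16, SE 0.04, edgeR adjusted p = 0.000503) and fell by 16.8% in U2OS-AsiSI (log2 fold change -0.26, SE 0.04, edgeR adjusted p = 4.42e-06). Library totals alone gave 0.04 and -0.07, and neither passed the test.

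KLF9, a Sin3-binding member and a target of steroid and thyroid hormone, lies at chr9:70384597-70414624 on the minus strand. In U2OS it had 33.5, 36.3 and 27.4 CPM under siCtrl and 34.0, 34.4 and 38.3 CPM after siINTS11, with overlap. In U2OS-AsiSI it had 33.9, 33.4 and 33.0 CPM under siCtrl and 27.5, 26.3 and 27.8 CPM after siINTS11, with none. KLF9 fell by 18.2% in U2OS-AsiSI (log2 fold change -0.29, SE 0.05, edgeR adjusted p = 2.33e-05), and the value in U2OS was 0.10 (SE 0.09, edgeR adjusted p = 0.325). The U2OS value was 0.21 without U2OS siCtrl replicate 2 (edgeR adjusted p = 0.00849) and 0.0015 without U2OS siCtrl replicate 3 (edgeR adjusted p = 0.985). With library totals alone the values were -0.10 (edgeR adjusted p = 0.12) in U2OS-AsiSI and 0.30 (edgeR adjusted p = 0.00585) in U2OS.

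KLF10 and KLF11 are a related pair, both induced by TGF-beta. KLF10, a gene of 6.94 kb, had 48.2, 44.7 and 46.8 CPM under siCtrl in U2OS and 40.9, 42.6 and 39.6 CPM after siINTS11. The U2OS-AsiSI levels were 53.1, 51.6 and 58.5 CPM under siCtrl and 53.5, 61.1 and 50.5 CPM after siINTS11. The groups were apart in U2OS and overlapped in U2OS-AsiSI. KLF10 fell by 13.5% in U2OS (log2 fold change -0.21, SE 0.05, edgeR adjusted p = 0.000177), with a value of -0.01 under library totals alone. In U2OS-AsiSI it was 0.02 (SE 0.06, edgeR adjusted p = 0.785), and library totals alone gave a call at 0.21 (edgeR adjusted p = 0.00271). Its density was 0.179 to 0.237 reads per base, and its counts followed library size at a slope of 0.47 (SE 0.13).

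KLF11 lies at chr2:10042849-10054836 on the plus strand. In U2OS it had 34.3, 34.2 and 31.9 CPM under siCtrl and 29.5, 30.3 and 29.4 CPM after siINTS11. Levels in U2OS-AsiSI were 32.9, 32.8 and 35.1 CPM under siCtrl and 23.2, 26.1 and 24.3 CPM after siINTS11. The siCtrl levels of the lines were alike in range, the siINTS11 levels were lower in each line, and no group overlapped its control. KLF11 fell by 12.9% in U2OS (log2 fold change -0.20, SE 0.05, edgeR adjusted p = 0.000934) and fell by 26.8% in U2OS-AsiSI (log2 fold change -0.45, SE 0.06, edgeR adjusted p = 4.97e-08). Under library totals alone the U2OS-AsiSI value was -0.26 and still passed the test, and the U2OS value was -0.00029.

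KLF13, known as a regulator of a chemokine gene in T cells, spans 108.83 kb at chr15:31326835-31435665 on the plus strand and drew only 61 to 108 reads per library. In U2OS it had 92, 108 and 95 reads under siCtrl, or 3.35, 3.05 and 3.35 CPM, and 66, 61 and 68 reads after siINTS11, or 1.99, 1.99 and 2.17 CPM. U2OS-AsiSI libraries gave 62, 65 and 72 reads under siCtrl, or 2.10, 2.03 and 2.63 CPM, and 63, 71 and 69 reads after siINTS11, or 2.20, 3.12 and 2.36 CPM. The U2OS siCtrl libraries thus stood above the rest, except that U2OS-AsiSI siINTS11 replicate 2 reached their lower edge. KLF13 fell by 37.8% in U2OS (log2 fold change -0.69, SE 0.14, edgeR adjusted p = 3.11e-05), and it still passed the test under library totals alone, at -0.49. In U2OS-AsiSI the value was 0.18 (SE 0.16, edgeR adjusted p = 0.329), and 0.37 (edgeR adjusted p = 0.0478) under library totals alone. The slope of its counts on library size was 0.04 (SE 0.25).

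The responses of the lines were then compared in 1 fit of the 12 libraries with an interaction term. Of the 9 members, 3 had a siINTS11 effect that differed between the lines, against 3.87% of 21521 genes. The effect was higher in U2OS-AsiSI for KLF13, as for 0.762% of all genes, and lower for KLF9 and KLF11, as for 3.1% of all genes. These background shares turned with the settings, to 2.82% higher and 1.39% lower with a mean count minimum of 50, 1.01% and 0.775% with no count filter, and 0.822% and 1.25% with median-of-ratios size factors. With 1 library left out, the calls over all genes ran from 288 (without U2OS siINTS11 replicate 3) to 945 (without U2OS siCtrl replicate 2), against 832 with all libraries, and without U2OS siCtrl replicate 3 the shares were 0.857% higher and 0.743% lower. KLF9 differed by -0.42 (SE 0.10, edgeR adjusted p = 0.0139), KLF11 by -0.29 (SE 0.08, edgeR adjusted p = 0.0285) and KLF13 by 0.83 (SE 0.20, edgeR adjusted p = 0.0195) on the log2 scale. The other 6 tested members had differences between -0.14 (KLF3) and 0.33 (KLF2), with edgeR adjusted p from 0.142 to 0.966. For KLF7 the difference was 0.02 (SE 0.06, edgeR adjusted p = 0.883).

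These 3 differences rest on few libraries. The KLF9 call was lost without U2OS siCtrl replicate 3 (-0.26, edgeR adjusted p = 0.0903) or U2OS siINTS11 replicate 3 (-0.36, edgeR adjusted p = 0.0644), the lowest and the highest KLF9 library of U2OS. The KLF13 call was lost without U2OS-AsiSI siINTS11 replicate 2 (0.69, edgeR adjusted p = 0.0808), U2OS-AsiSI siCtrl replicate 2 (0.76, edgeR adjusted p = 0.0589) or U2OS siINTS11 replicate 1 (0.81, edgeR adjusted p = 0.0514). Thinning to the smallest total left KLF13 at 0.82 (edgeR adjusted p = 0.0728). The KLF11 call was lost in 8 of 12 fits with a library left out, namely without any 1 U2OS siINTS11 library, U2OS siCtrl replicate 3, U2OS-AsiSI siCtrl replicate 2 or 3, or U2OS-AsiSI siINTS11 replicate 1 or 3, with values from -0.32 to -0.20 over the 12. It was also lost under 5 of the 8 other settings: library totals alone (-0.26, edgeR adjusted p = 0.0858), median-of-ratios size factors (-0.25, edgeR adjusted p = 0.0703), no count filter (-0.24, edgeR adjusted p = 0.119), a mean count minimum of 50 (-0.22, edgeR adjusted p = 0.102) and DESeq2 (-0.26, adjusted p = 0.0818). Without U2OS-AsiSI siCtrl replicate 3 the KLF2 difference passed, at 0.51 (edgeR adjusted p = 0.0179). With no count filter, KLF2 (0.38, edgeR adjusted p = 0.0471) and KLF10 (0.24, edgeR adjusted p = 0.0486) passed too. By DESeq2, KLF9 passed (-0.40, adjusted p = 0.0188) and KLF13 had no adjusted p.

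**Figure D4:**
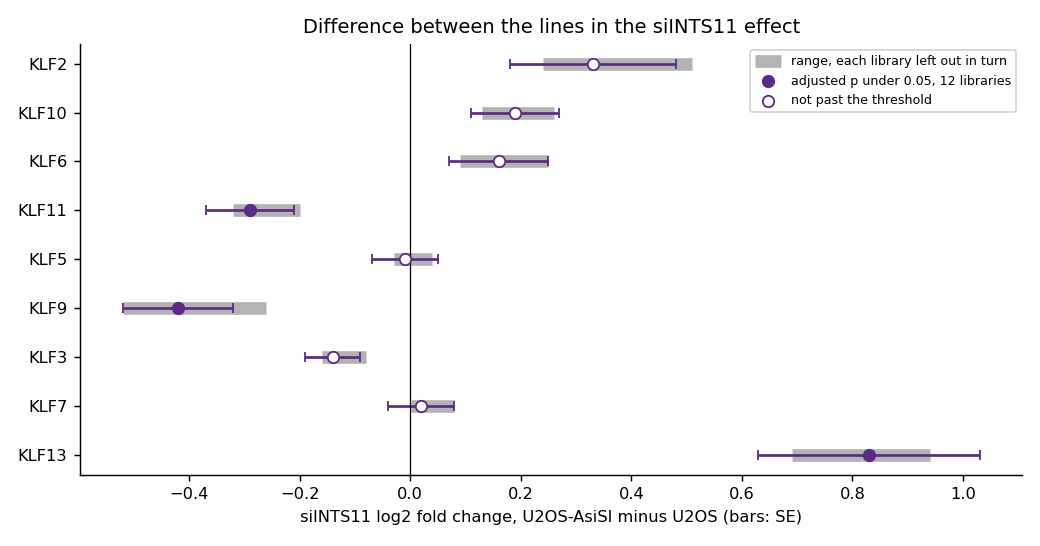
Difference between the lines in the siINTS11 effect, U2OS-AsiSI minus U2OS on the log2 scale (points, SE over 12 libraries), for the 9 tested KLF genes; grey bars are the range when each library is left out in turn and filled points passed the test. KLF13 lies at 0.83 with a range of 0.69 to 0.94, and KLF9 at -0.42 with a range of -0.52 to -0.26.

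Under the control siRNA, 5 of the 9 members differed between U2OS-AsiSI and U2OS, against 34.9% of 19935 genes tested by edgeR. KLF2 and KLF10 were higher in U2OS-AsiSI (17.8% of genes were) and KLF6, KLF7 and KLF13 were lower (17.2% of genes were). The libraries were apart for KLF2, KLF7, KLF10 and KLF13, 4 of 9 members against 44.9% of all genes. KLF2 was 43.5% higher (log2 fold change 0.52, SE 0.12, edgeR adjusted p = 0.00259) and KLF10 was at 0.23 (SE 0.05, edgeR adjusted p = 0.000809). KLF7 was at -0.36 (SE 0.04, edgeR adjusted p = 5.93e-08), KLF13 at -0.53 (SE 0.14, edgeR adjusted p = 0.00412) and KLF6 at -0.24 (SE 0.07, edgeR adjusted p = 0.016). The KLF6 call was lost without U2OS-AsiSI siCtrl replicate 1 (-0.21, edgeR adjusted p = 0.127) and with library totals alone (-0.18, edgeR adjusted p = 0.0747). KLF3, KLF5, KLF9 and KLF11 had values from -0.07 to 0.04 and did not pass the test. With library totals alone the upward share of all calls in this comparison went from 50.9% to 67.4%. This comparison shares its siCtrl libraries with the siINTS11 comparisons, so KLF2, KLF7, KLF10 and KLF13 are not independent results across them.

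The members differ in gene length and span 3.06 to 108.83 kb. Among protein-coding genes of U2OS-AsiSI, the median log2 fold change after siINTS11 was 0.22 for spans under 5 kb, 0.13 from 5 to 15 kb, -0.01 from 15 to 50 kb and -0.19 from 50 to 150 kb. In U2OS the medians of these bands were 0.09, 0.12, 0.00 and -0.16. KLF2, of the shortest band, and KLF7, of the longest, lay on the same side as their band in U2OS-AsiSI. KLF13, of the same band as KLF7, was at 0.18 in U2OS-AsiSI, above the upper quartile of 0.08, and at -0.69 in U2OS, below the lower quartile. KLF7, at -0.48 and -0.53, was below the lower quartile of its band in both lines (-0.40 and -0.37). KLF11, in the band from 5 to 15 kb, was at -0.45 and -0.20 and below the lower quartile of -0.07 in both lines. KLF6 (-0.12) and KLF10 (-0.21), of that band too, were below it in U2OS and inside the middle of the band in U2OS-AsiSI. KLF9 and KLF3 were below the lower quartile of -0.21 in U2OS-AsiSI and inside the middle of their band in U2OS. Over the 9 members the Spearman correlation of span with log2 fold change was -0.40 in U2OS-AsiSI and -0.50 in U2OS, given as a description of genes that share the same libraries.

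**Figure D5:**
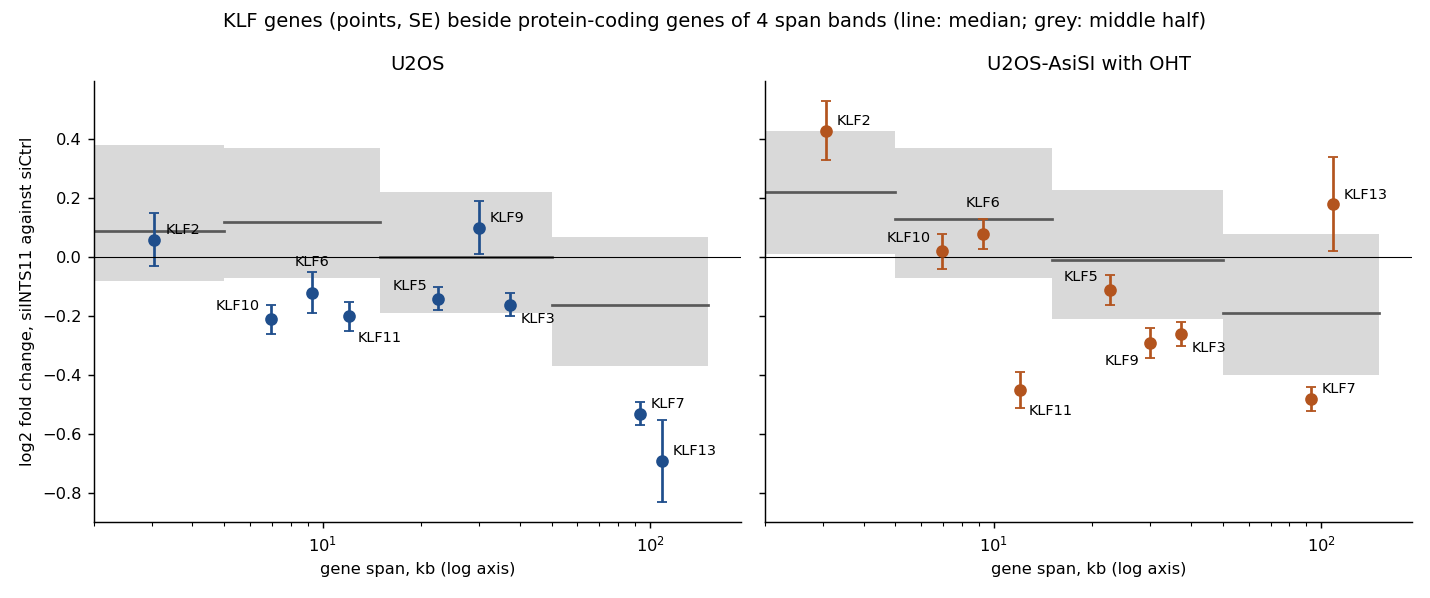
Log2 fold change of siINTS11 against siCtrl (points, SE) for the 9 tested KLF genes against gene span in kb (log axis), beside the median and middle quartiles of protein-coding genes in 4 span bands. KLF7 and KLF11 lie below the grey band in both lines, and the band medians fall from 0.22 to -0.19 in U2OS-AsiSI.

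KLF3, KLF7 and KLF11 have neighbours on the other strand, that of KLF11 with at most 1 read. KLF3-AS1 overlaps KLF3 by 718 bases at its 5′ end, and MYOSLID, a long non-coding RNA gene named here after its values were seen, overlaps the 5′ end of KLF7 by 1148 bases. KLF3-AS1 had 54 to 101 reads under siCtrl and 124 to 170 after siINTS11, and it rose by 0.77 in U2OS (SE 0.13, edgeR adjusted p = 3.88e-06) and 0.90 in U2OS-AsiSI (SE 0.11, edgeR adjusted p = 3.46e-08) on the log2 scale. MYOSLID had 29.7, 29.1 and 28.6 CPM under siCtrl in U2OS and 48.9, 52.9 and 49.1 CPM after siINTS11. In U2OS-AsiSI it had 33.8, 34.5 and 36.4 CPM under siCtrl and 52.5, 54.6 and 52.6 CPM after siINTS11. It rose by 0.76 (SE 0.05, edgeR adjusted p = 1.88e-17) in U2OS and 0.61 (SE 0.05, edgeR adjusted p = 5.18e-12) in U2OS-AsiSI, opposite to KLF7 on the other strand. Whether strand was used in counting is not given in the sources used here, so reads of such partners may not be told apart where they overlap. KLF7-IT1, inside KLF7, and UBE2CP4, a pseudogene inside KLF13, had a count of 0 in every library. KLF7-IT1 lies on the strand of KLF7, which drew 0.0553 to 0.157 reads per base. How reads shared by overlapping genes were assigned is not given in the sources used here. A count of 0 thus does not show that KLF7-IT1 is unread.

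The remaining 8 KLF genes were set beside the members. Of the 6 tested, 1 rose (KLF16) and 2 fell (KLF12 and KLF17) in each line, and all 3 kept these calls with library totals alone. Over all genes tested, 35.4% rose and 32.6% fell in U2OS-AsiSI, and 34.5% rose and 32.4% fell in U2OS. KLF12, a CtBP-binding repressor like KLF3 and the longest gene of the family here at 308.97 kb, fell by 0.49 in U2OS (edgeR adjusted p = 7.15e-14) and 0.70 in U2OS-AsiSI (edgeR adjusted p = 1.52e-13) on the log2 scale. KLF16, which binds Sin3, was at 0.45 and 0.29 (edgeR adjusted p = 1.15e-09 and 9.75e-06). KLF17, a germ-line and early embryo gene with 34 to 47 reads per siCtrl library and 7 to 18 per siINTS11 library, was at -1.98 and -1.58 (edgeR adjusted p = 9.66e-09 and 6.13e-06). Under TMM scaling KLF8, KLF14 and KLF15 did not pass the test in either line. With library totals alone, 2 of the 6 tested rose and 2 fell in U2OS-AsiSI, and 1 and 2 in U2OS. Over all genes that scaling gave 51.6% and 19.7%, and 53% and 18.4%. KLF1 had 0 reads in every library and KLF18 had 1 read in all.

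SP proteins bind the same GC boxes as the KLFs. Of the 6 SP genes tested, 2 rose and 3 fell in each line, and the median log2 fold change was -0.20 in U2OS-AsiSI and -0.11 in U2OS. Beside this, 35.4% of all genes rose and 32.6% fell in U2OS-AsiSI, and 34.5% and 32.4% in U2OS. SP4, a brain-enriched activator, was at 0.62 in U2OS-AsiSI and 0.68 in U2OS, and SP6, an epithelial and tooth factor, was at 1.15 and 0.90. SP3, a broadly expressed family member, was at -0.36 and -0.39, and SP2 was at -0.31 and -0.36. For SP4 the libraries held 83.5 to 95.0 CPM under siCtrl and 128 to 151 CPM after siINTS11 over both lines, without overlap. Under library totals alone SP1, the third gene that fell, no longer passed the test in either line, and the other 4 kept their calls.

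Of 12 genes for KLF cofactors, 3 rose and 8 fell in U2OS-AsiSI, and 1 rose and 7 fell in U2OS, where library totals alone gave 4 and 2, and 6 and 2. Over all genes, 35.4% rose and 32.6% fell in U2OS-AsiSI, and 34.5% and 32.4% in U2OS. Library totals alone moved these shares to 51.6% and 19.7%, and 53% and 18.4%. All genes of the list but CTBP1, HDAC1, HDAC3 and FHL3 span at least 50.95 kb. Under TMM scaling, 56.1% of protein-coding genes of 50 to 150 kb fell and 19.6% rose in U2OS-AsiSI, and 56.5% and 20.5% in U2OS. The part of gene length here was not tested. NCOR1, a corepressor, was at -0.40 in U2OS-AsiSI and -0.30 in U2OS, and KAT2B, an acetyltransferase, was at -0.47 in both. FHL3, a LIM protein that partners KLF3, was at 0.40 and 0.35. SIN3B, of the Sin3 corepressor, was at -0.23 and -0.26, and both of its calls were lost with library totals alone.

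Of 12 genes upstream of KLF2 and KLF4 or for ubiquitin ligases of KLF proteins, 1 rose and 8 fell in U2OS-AsiSI, and 2 rose and 8 fell in U2OS. Library totals alone gave 4 and 5, and 4 and 4. The shares of all genes that rose and fell were 35.4% and 32.6% in U2OS-AsiSI and 34.5% and 32.4% in U2OS. They were 51.6% and 19.7%, and 53% and 18.4%, with library totals alone. All genes of the list but MAPK7 and MEF2D span at least 73.89 kb. Of protein-coding genes of 50 to 150 kb, 19.6% rose and 56.1% fell in U2OS-AsiSI under TMM scaling, and 20.5% and 56.5% in U2OS. The part of gene length in these counts was not tested. MAP3K3, a kinase at the head of the pathway that induces KLF2, had the largest change of the list, at -1.07 (SE 0.05, edgeR adjusted p = 5.21e-17) in U2OS-AsiSI and also fell in U2OS (SE 0.04, edgeR adjusted p = 4.56e-24). BTRC, a ubiquitin ligase subunit, was at -0.54 and -0.46, MEF2A, a transcription factor of that pathway, at -0.41 and -0.37, and WWP1, a ligase of KLF2 and KLF5, at -0.39 and -0.29.

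Of 15 tested genes reported as KLF targets, 7 rose and 5 fell in U2OS-AsiSI, and 6 rose and 4 fell in U2OS. Library totals alone gave 8 and 3, and 9 and 3. Among all genes, 35.4% rose and 32.6% fell in U2OS-AsiSI, and 34.5% and 32.4% in U2OS. With library totals alone these shares were 51.6% and 19.7%, and 53% and 18.4%. PLAU, the urokinase gene, was at 1.26 (SE 0.05, edgeR adjusted p = 7.64e-19) in U2OS-AsiSI and 0.87 (SE 0.06, edgeR adjusted p = 4.45e-15) in U2OS. The growth factor gene PDGFA was at 0.76 and 0.56, ENG, a TGF-beta co-receptor, at 0.92 and 0.64, and ARNTL, the clock gene now named BMAL1, at -0.69 and -0.99. PLAU and ENG are targets described for KLF6.

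Across the 12 libraries, 13556 genes were ranked by the Pearson correlation of their log2 CPM with KLF7 and with KLF2, as a description of genes that share libraries and scaling. Nearest to KLF7 were GNE, ABHD2 and TRPS1, each at r = 0.994, and 2390 genes reached 0.9. The 3 genes span from 62616 to 401178 bases. Nearest to KLF2 were MRPS2 at 0.979, CDCA5 at 0.971 and RPL24 at 0.971, with 313 genes at 0.9 or above.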

How the data were processed

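The values are raw read counts per gene, whole numbers as deposited by the authors, over the whole gene span with introns; 12 count columns were used and 0 were left without a sample. Per the submitters' processing notes, the tools included Trimmomatic 0.36, STAR 2.7, featureCounts and deepTools with hg38. The strand setting and any removal of duplicates are not given in the sources used here, and yeast spike-in counts were not used. Depth was 20704611 to 38065726 counts per library. Intervals and limits cover counting error only.

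Tests ran in edgeR 4.0.16 (R 4.3.3) with filterByExpr, TMM scaling, glmQLFit (robust) and glmQLFTest, two-sided, Benjamini-Hochberg over all genes tested, threshold 0.05, on the libraries compared. An SE is the absolute log2 fold change over the root of the F statistic. The test steps were also run on counts simulated from the model that edgeR fits. That run does not check whether the model suits these libraries, and no result here rests on it. Scaled CPM used TMM over 12 libraries. The alternatives tried were library totals alone, median-of-ratios size factors, 2 other count filters, a replicate block, DESeq2 1.42.0, thinning to the smallest total, an adjustment for a ceiling of 1 read per base, and each library left out. Within groups, replicates had a chi-square per degree of freedom of 1.93 to 3.28, above sampling noise, and each counts as a sample. Figures were drawn with matplotlib 3.10.9.

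Members and gene lists were chosen with earlier results of these data known. Named genes are the 10 members, INTS11, up to 4 genes of each list by smallest adjusted p in U2OS-AsiSI, and the 3 genes most correlated with the members of highest and lowest mean response; other names are stated as exceptions or complete a list. The markers of the line named in the text leave out 1 gene of the list, which is not reported here.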

Additional observations from a re-analysis of the deposited data

Results flagged for a closer look

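For 3 KLF genes the siINTS11 effect differed between the lines by the test of the difference itself, edgeR's interaction of siRNA and line. The log2 effect in U2OS-AsiSI minus that in U2OS was -0.42 for KLF9, which fell in U2OS-AsiSI and had an effect of 0.10 in U2OS. It was -0.29 for KLF11, which fell in both lines. It was 0.83 for KLF13, which fell in U2OS and had an effect of 0.18 in U2OS-AsiSI. What set these differences was not tested. With each library left out in turn, the call was lost in 8 of 12 fits for KLF11, 3 for KLF13 and 2 for KLF9. The KLF11 call was also lost under 5 of the 8 other settings.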

How the results depend on the processing

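With library totals alone, 20 of 36 member values kept direction and call and 5 turned sign. Of the rest, 6 lost and 5 gained a call. Among those that turned sign, KLF5 in both lines and KLF3 in U2OS lost their calls too. The reversed log2 values were 0.08 for KLF5 in U2OS-AsiSI, 0.04 for KLF3, 0.06 for KLF5 and 0.08 for KLF6 in U2OS, and 0.02 for KLF5 between the lines; INTS11 also turned, to 0.06 in U2OS-AsiSI. Calls over all genes went from 7140 to 10959 upward and from 6706 to 3800 downward in U2OS, and from 6657 to 4033 downward in U2OS-AsiSI. KLF7 fell and KLF2 rose (the latter in U2OS-AsiSI) under each of the 8 other settings. Values near 0 also turned: KLF10 in U2OS-AsiSI with median-of-ratios size factors (-0.00096) and DESeq2 (-0.02), KLF11 under siCtrl with median-of-ratios (-0.00072), and the KLF5 line difference with median-of-ratios (0.03), no filter (0.04), a mean of at least 50 reads (0.06) and DESeq2 (0.02). DESeq2 called 1 member between the lines in place of 3. Over all genes that comparison gave 832 calls, against 447 with median-of-ratios, 585 with totals and 1281 with the block; the cause was not tested.

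Leaving out libraries, members called ran from 5 to 6 in U2OS-AsiSI, 6 to 8 in U2OS, 1 to 3 between the lines (1 without U2OS siCtrl replicate 3, U2OS siINTS11 replicate 1 or 3, or U2OS-AsiSI siCtrl replicate 2) and 4 to 5 under siCtrl. Log2 ranges that crossed 0 were -0.06 to 0.08 for KLF10 in U2OS-AsiSI, -0.03 to 0.13 for KLF2 in U2OS, -0.03 to 0.04 for KLF5 between the lines, and, under siCtrl, -0.06 to 0.14 for KLF9 and -0.02 to 0.03 for KLF11.

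Replicate numbers did not clearly pair the libraries. Correlations of deviations ran from -0.11 to 0.14 for the same number and from -0.10 to 0.12 for different numbers. Between the siRNAs in U2OS-AsiSI the same-number values were 0.14, 0.01 and 0.02, so a weak pairing there is not excluded. With the replicate block 35 of 36 values kept direction and call, and the KLF9 line difference was -0.43 with edgeR adjusted p = 0.0507. Thinning kept 33 of 36 and the ceiling adjustment 36 of 36. At 61 to 108 reads, KLF13 is limited by depth, and KLF4 was below the filter.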
